A study of Mus musculus with 10 samples.

Results

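Choline is burned in the liver as a source of methyl groups. Choline dehydrogenase (CHDH) and the aldehyde dehydrogenase ALDH7A1 oxidize it to betaine, betaine gives a methyl group to homocysteine through BHMT, beside which BHMT2 remethylates homocysteine with another donor, and dimethylglycine dehydrogenase (DMGDH) and sarcosine dehydrogenase (SARDH) strip the remaining methyl groups off in mitochondria, which leaves glycine. The methionine remade in this way becomes S-adenosylmethionine (SAM), which methyltransferases spend on phosphatidylcholine (PEMT), creatine (GAMT) and the clearance of nicotinamide (NNMT). The sulfur that leaves the cycle as cysteine is turned into taurine, the amino acid to which mouse bile acids are joined, by cysteine dioxygenase (CDO1) and cysteine sulfinic acid decarboxylase (CSAD). The 10 genes of these steps were chosen by their symbols, *Pemt*, *Nnmt*, *Gamt*, *Bhmt2*, *Chdh*, *Dmgdh*, *Sardh*, *Cdo1*, *Csad* and *Aldh7a1*, and all 10 were found among the 24052 symbols counted. The choice was made with earlier results of these data known.

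RNA sequencing measured their mRNA in the livers of 10 C57BL/6 mice fed ad libitum, 5 wild-type (WT) and 5 with a deletion of exon 4 of *Ndrg3* (Ndrg3 LKO), with 1 library per liver. The study describes a conditional allele with loxP sites around that exon, removed by a Cre recombinase under the albumin promoter, which is active in hepatocytes. It calls the disruption specific to hepatocytes, and whether other cells of the liver lost the exon was not tested here. The allele was first crossed to C57BL/6N. Littermates called wild-type served as controls. In the last cross described, of a floxed heterozygote carrying Cre with a floxed homozygote, every littermate would carry a floxed allele, and whether the controls used here did, or carried Cre, is not given in the sources used here. The livers came from mice of 8 to 10 weeks by the methods, while a figure legend gives a somewhat older age, and males were used unless stated otherwise.

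Between 20872262 and 24747870 reads were counted per WT liver and between 23474693 and 30450057 per Ndrg3 LKO liver. Levels are given as CPM, counts relative to the library size after TMM scaling, and differences as log2 fold changes of Ndrg3 LKO over WT with adjusted p-values from edgeR's quasi-likelihood test over all genes tested. The TMM factors differed with genotype, at 0.80 to 0.92 in WT livers and 1.20 to 1.36 in Ndrg3 LKO replicates 1 to 4. Replicate 5 had 0.90, and a larger factor lowers the CPM of a liver. *Ndrg3* itself, counted over the whole gene and not over exon 4, was at 18.5 ± 2.22 CPM in WT livers and 8.07 ± 0.761 in Ndrg3 LKO livers (SD, n = 5 each), and every Ndrg3 LKO liver lay below every WT liver (log2 fold change -1.20, standard error (SE) 0.13, adjusted p = 3.87e-05 by edgeR). The study's figure legends for its RNA sequencing and metabolite data give 5 WT but 4 Ndrg3 LKO livers. They do not name the Ndrg3 LKO liver that was not used, and all 5 are used here. Ndrg3 LKO replicate 5 stood apart from the other 4 livers of its group. On the first principal component of log2 CPM it lay at 14.1, between the WT livers (-49.9 to -43.1) and Ndrg3 LKO replicates 1 to 4 (51.1 to 56.6), and results are therefore also given without it. Of 12 hepatocyte markers, 9 fell in Ndrg3 LKO livers with an adjusted p under 0.05 by edgeR, where 23.0% of all genes tested did. Without replicate 5, 11 of these markers fell, where 27.2% of all genes then tested did. Their summed level was 161385 to 205610.0 CPM in WT livers, 40938 to 48518 in Ndrg3 LKO replicates 1 to 4 and 165688 in replicate 5. Markers of macrophages (8 of 8 tested), stellate cells (5 of 7) and endothelial cells (5 of 6) rose, where 25.6% of all genes tested did. Of the 5 biliary markers tested, 1 rose and 1 fell, too few to read a share from. The macrophage list summed to 81.9 to 205 CPM in WT livers and 182 to 583 in Ndrg3 LKO replicates 1 to 4, with 241 in replicate 5. The stellate list summed to 112 to 177 CPM and 239 to 311 in the same livers, and the endothelial list to 67.6 to 83.2 and 132 to 165, with 241 and 123 in replicate 5. Biliary markers summed to 38.9 to 72.7 CPM in WT livers, 51.7 to 222 in Ndrg3 LKO replicates 1 to 4 and 51.6 in replicate 5. None of the 6 lymphocyte and neutrophil markers reached the level required for testing (summed to at most 4.64 CPM, other than 15.5 in replicate 5), and none of the marker genes was at 0 in every liver. The part of these shifts in the results below was not tested, and in whole liver RNA fewer cells of a type cannot be told apart from less RNA per cell.

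The genes that carry betaine-derived carbon to glycine, betaine aldehyde oxidation and the first step of taurine synthesis were lower in Ndrg3 LKO livers, and the second step of taurine synthesis was higher. *Aldh7a1* was 4.12-fold lower, *Dmgdh* 3.46-fold, *Gamt* 2.25-fold, *Sardh* 1.97-fold, *Cdo1* 1.91-fold and *Bhmt2* 1.89-fold, while *Csad* was 1.93-fold higher. *Pemt*, *Nnmt* and *Chdh* did not pass the test. All 10 genes passed the filter on low counts, with between 1325 and 48258 counts per liver. With an edgeR adjusted p under 0.05, 6 of the 10 were lower, where 23.0% of the 11208 genes tested were, and 1 was higher, where 25.6% were. The median log2 fold change of the 10 genes was -0.93, beside 0.031 for all genes tested and -1.27 for the hepatocyte markers. In TMM-scaled CPM, WT and Ndrg3 LKO livers did not overlap for 5 of the 10 genes (4 lower and 1 higher), and for 31.5% of all genes tested. An absolute log2 fold change above 1 together with the adjusted p left 3 of the 10, against 20.5% of all genes. Without Ndrg3 LKO replicate 5, 7 of the 10 were lower and 1 higher, where 27.2% and 28.4% of the 11446 genes then tested were. The median log2 fold change was then -1.06 for the 10 genes, 0.032 for all genes tested and -2.14 for the hepatocyte markers.

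**Figure D1:**
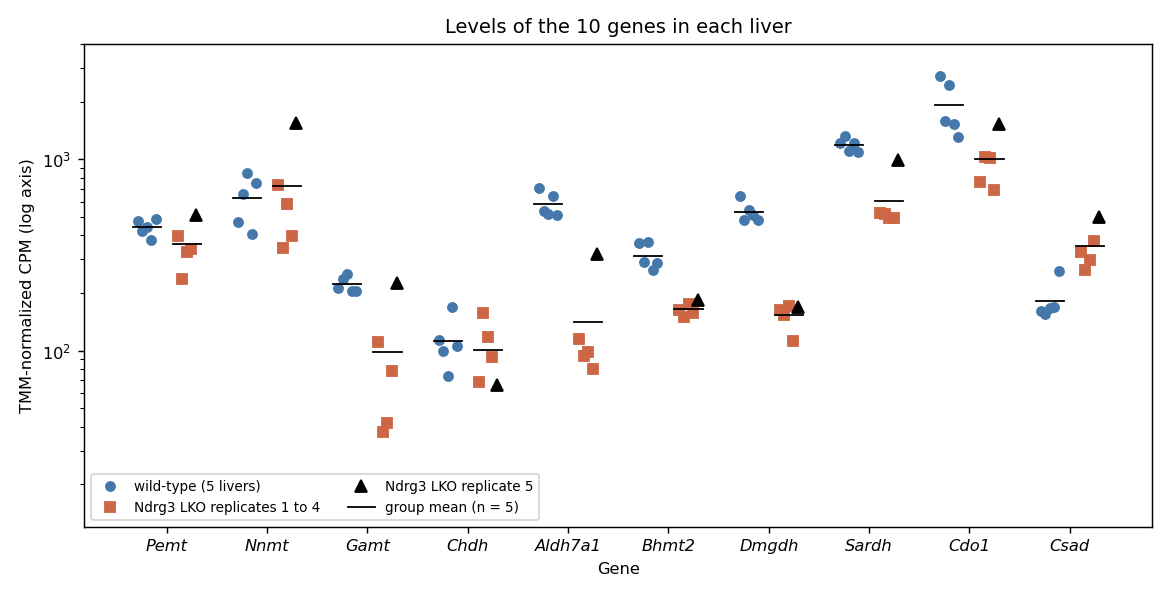
TMM-normalized CPM of the 10 genes on a log axis in each WT liver (circles), Ndrg3 LKO replicates 1 to 4 (squares) and Ndrg3 LKO replicate 5 (triangles), with group means as lines (n = 5 each). *Bhmt2*, *Dmgdh*, *Sardh*, *Aldh7a1* and *Csad* do not overlap between the groups, and the triangle lies within or above the WT range for *Pemt*, *Nnmt*, *Gamt* and *Cdo1*.

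Of *Gamt*, *Pemt* and *Nnmt*, whose products are methyltransferases that draw on SAM, *Gamt* was the one that fell. It encodes guanidinoacetate N-methyltransferase, which finishes creatine synthesis, and lies on chromosome 10 at 79720896 to 79723757 (mm9, minus strand). The WT livers had 212, 236, 251, 206 and 205 CPM in replicates 1 to 5, and Ndrg3 LKO replicates 1 to 5 had 111, 37.5, 41.8, 78.0 and 226. The WT livers lay close together, and the Ndrg3 LKO livers spread widely, with replicates 2 and 3 lowest and replicate 5 inside the WT range. *Gamt* differed by -1.17 on the log2 scale (SE 0.41, adjusted p = 0.0344 by edgeR; exact permutation test over all splits of the livers, p = 0.0317). Without Ndrg3 LKO replicate 5 it was -1.74 (SE 0.29, adjusted p = 3.78e-04 by edgeR), and the call was lost when any 1 of 7 other livers was left out (WT replicates 1, 2 and 3 and Ndrg3 LKO replicates 1 to 4).

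*Pemt*, on chromosome 11 at 59784116 to 59859991 (mm9, minus strand), encodes the enzyme that methylates phosphatidylethanolamine to phosphatidylcholine in the endoplasmic reticulum, the liver's own route to new choline. Its level was 476, 423, 440.0, 379.8 and 489.8 CPM in WT replicates 1 to 5 and 395, 236, 328, 340.3 and 513 in Ndrg3 LKO replicates 1 to 5. Ndrg3 LKO replicates 2, 3 and 4 lay below every WT liver, replicate 1 inside the WT range and replicate 5 above it. The difference did not pass the test over 10 livers (log2 fold change -0.29, 95% interval -0.71 to 0.13, adjusted p = 0.238 by edgeR). It passed without replicate 5 (-0.46, SE 0.16, adjusted p = 0.0303 by edgeR, from 0.0303 to 0.648 over the 18 alternatives), and its sign turned when libraries were scaled by their totals alone (0.20).

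*Nnmt* encodes nicotinamide N-methyltransferase, which methylates nicotinamide for excretion, and lies on chromosome 9 at 48399982 to 48413258 (mm9, minus strand). WT replicates 1 to 5 had 471, 654, 843, 405 and 752 CPM and Ndrg3 LKO replicates 1 to 5 had 737, 345, 580.2, 397 and 1541. Replicate 5 was the only Ndrg3 LKO liver above the WT range, at more than any other liver, and replicates 2 and 4 lay below it. The estimate was 0.20 (95% interval -0.62 to 1.03, adjusted p = 0.678 by edgeR) over 10 livers and -0.29 without replicate 5 (adjusted p = 0.374 by edgeR), so its direction rested on 1 liver. The interval over 10 livers includes changes of more than 1 on the log2 scale upward, and the data do not show that *Nnmt* was alike in both genotypes.

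Of the genes for the enzymes that make betaine from choline, *Aldh7a1* fell and *Chdh* did not pass the test. *Aldh7a1*, whose product oxidizes betaine aldehyde to betaine and also acts in lysine breakdown, lies on chromosome 18 at 56669341 to 56732605 (mm9, minus strand) and fell the furthest of the 10 genes. It had 703, 538, 519, 642 and 511 CPM in WT replicates 1 to 5, and 115, 93.9, 98.6, 80.5 and 320.0 in Ndrg3 LKO replicates 1 to 5. Every Ndrg3 LKO liver was below every WT liver, with replicate 5 nearest to them. *Aldh7a1* differed by -2.04 on the log2 scale (SE 0.36, adjusted p = 8.29e-04 by edgeR; p = 0.00794 in the exact permutation test, the smallest that 5 livers against 5 allow) and -2.60 without replicate 5. On the opposite strand *Phax* overlaps it, and the strand setting of the counting is not given in the sources used here; *Phax* had 30.6 CPM in WT and 14.1 in Ndrg3 LKO livers, under the level of *Aldh7a1* in each liver.

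*Chdh* encodes the mitochondrial choline dehydrogenase that precedes ALDH7A1, and lies on chromosome 14 at 30822209 to 30853652 (mm9, plus strand). Its level was 114, 99.8, 73.9, 169 and 106 CPM in WT replicates 1 to 5 and 68.5, 157, 118, 92.1 and 65.7 in Ndrg3 LKO replicates 1 to 5. Both groups held high and low livers, and only Ndrg3 LKO replicates 1 and 5 lay below the WT range. *Chdh* did not pass the test (log2 fold change -0.17, 95% interval -0.75 to 0.41, adjusted p = 0.625 by edgeR), and the estimate was 0.39 with library totals alone and 0.022 without WT replicate 4. *Cacna1d* lies opposite to it, at 3.05 CPM in WT and 0.924 in Ndrg3 LKO livers.

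*Bhmt2*, of homocysteine remethylation, and *Dmgdh* and *Sardh*, which follow betaine on the way to glycine, were all lower, with no overlap between the genotypes in TMM-scaled CPM. For *Bhmt2* and *Sardh* the lack of overlap rested on TMM scaling, since both overlapped over library totals alone. *Bhmt2* and *Dmgdh* are neighbours that point away from each other on chromosome 13. In the GENCODE annotation of mm9, *Bhmt2* occupies the minus strand from 94425675 to 94444257 and *Dmgdh* the plus strand from 94444388 to 94522786, which leaves 130 bases between their 5′ ends. *Bhmt*, the close paralog of *Bhmt2*, lies 17758 bases beyond the 3′ end of *Bhmt2* on the same strand, and reads that match both genes could be split between them or dropped. The windows around the starts of *Bhmt2* and *Dmgdh*, from RefSeq on GRCm38.p6 and covering 250 bases before and 50 after each start, share 233 bases. They are shown because both genes fell and the start of each lies inside the window of the other; *Bhmt2* is read on the minus strand (chr13:93674253-93674552) and *Dmgdh* on the plus strand (chr13:93674186-93674485). Capitals mark GGGCGG, a GC box of the kind SP1 can bind, or its complement CCGCCC.
Bhmt2: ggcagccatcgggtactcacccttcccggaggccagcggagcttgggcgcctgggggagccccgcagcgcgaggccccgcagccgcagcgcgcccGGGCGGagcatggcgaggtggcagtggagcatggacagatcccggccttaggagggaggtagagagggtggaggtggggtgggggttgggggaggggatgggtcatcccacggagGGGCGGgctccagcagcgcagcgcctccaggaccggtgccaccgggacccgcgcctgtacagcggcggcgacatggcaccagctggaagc
Dmgdh: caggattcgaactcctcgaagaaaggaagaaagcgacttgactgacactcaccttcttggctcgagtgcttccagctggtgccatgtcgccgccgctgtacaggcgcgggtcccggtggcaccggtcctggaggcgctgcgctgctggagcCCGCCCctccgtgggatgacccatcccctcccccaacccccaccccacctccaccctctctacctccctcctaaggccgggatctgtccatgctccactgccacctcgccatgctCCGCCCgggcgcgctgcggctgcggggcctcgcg

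Each of these windows holds GGGCGG at 2 places, and G or C makes up 73.7% of the window of *Bhmt2* and 68.0% of that of *Dmgdh*. Promoter windows were found for 7 of the 10 genes (11 windows, since *Pemt*, *Chdh* and *Csad* have several starts). GGGCGG on either strand was present in 5 of the 11 windows, 1 each of *Gamt*, *Bhmt2*, *Dmgdh*, *Chdh* and *Csad*, and in 35.7% of 32851 windows over all genes. The matches of *Bhmt2* and *Dmgdh* are the same 2 places, in the bases that their windows share. The other motifs searched on both strands were absent from the 11 windows. They were TATAAA (in 13.6% of all windows), CACGTG (7.15%), TTGCGCAA (0.183%), CAAAGTCCA (0.475%) and a direct repeat of AGGTCA spaced by 1 base (0.0396%). A match says only that these letters are present.

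*Bhmt2* encodes a methyltransferase that makes methionine from homocysteine with S-methylmethionine as donor. WT replicates 1 to 5 had 363, 289, 368, 263 and 285 CPM, and Ndrg3 LKO replicates 1 to 5 had 163, 150.1, 176, 156 and 183. The Ndrg3 LKO livers lay within a narrow band that included replicate 5. *Bhmt2* differed by -0.92 on the log2 scale (SE 0.14, adjusted p = 3.51e-04 by edgeR), -0.97 without replicate 5 and -0.40 with library totals alone, a scaling under which the median of all genes moved to 0.56. *Dmgdh*, which shares its start region, had 644, 483, 541, 509 and 479.7 CPM in WT and 163, 153, 170.0, 112 and 169.6 in Ndrg3 LKO livers. Again no liver of one group reached the other, and replicate 5 stood with the rest of its group. The log2 fold change of *Dmgdh* was -1.79 (SE 0.16, adjusted p = 1.22e-05 by edgeR), with intervals of -2.14 to -1.44 for *Dmgdh* and -1.23 to -0.61 for *Bhmt2*. AW495222 and Gm15620 lie opposite to *Dmgdh*, and AW495222 had at most 1.12 CPM in any liver.

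Within 500000 bases of *Bhmt2* on either side lie 9 annotated genes with a symbol in the files, with *Bhmt2* and *Dmgdh* among them, and 8 were tested. Of the 6 tested genes other than this pair, 4 fell and 1 rose, where 23.0% and 25.6% of all genes tested did, and 6 genes are too few to read a share from. *Bhmt*, the main betaine-dependent methyltransferase of the liver, fell by 4.26 on the log2 scale (SE 0.58, adjusted p = 1.75e-04 by edgeR), from 4324 ± 1831 to 225 ± 216 CPM (SD, n = 5 each). *Arsb*, for the lysosomal arylsulfatase B, was at -0.70 (adjusted p = 6.70e-04 by edgeR), *Homer1* at -0.80, *Papd4* at -0.63 and *Jmy* at -0.33 (adjusted p = 0.140 by edgeR). *Lhfpl2* was higher, at 1.14 (adjusted p = 6.76e-04 by edgeR), on a low level of 1.55 CPM in WT livers.

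**Figure D2:**
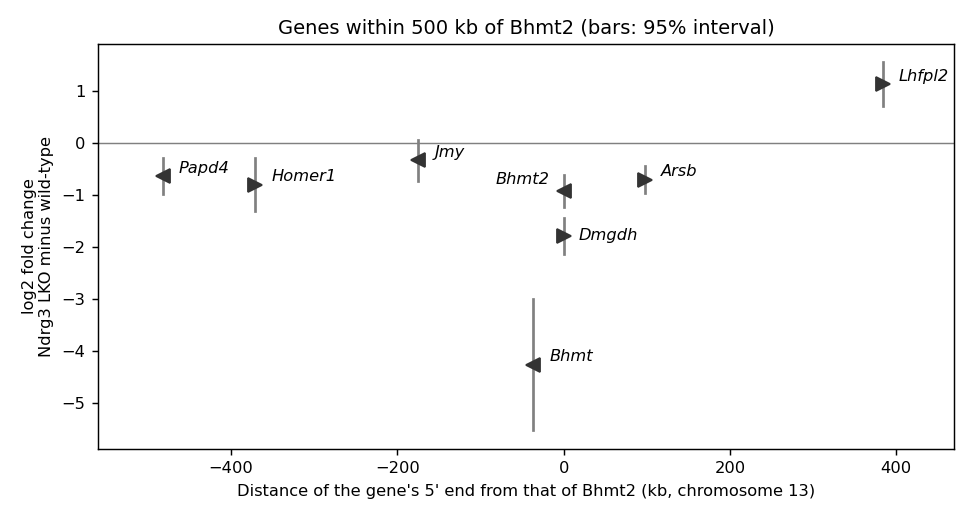
Log2 fold change (Ndrg3 LKO over WT, edgeR, with 95% intervals) of the 8 genes tested around *Bhmt2* against the distance in kb of each gene's 5′ end from that of *Bhmt2*; triangles point in the direction of transcription. *Bhmt2* and *Dmgdh* share a position at 0 with opposite directions, *Bhmt* is lowest and *Lhfpl2* lies above 0.

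*Sardh* encodes the mitochondrial enzyme that turns sarcosine into glycine after DMGDH has acted, and lies on chromosome 2 at 27043913 to 27103857 (mm9, minus strand), with Gm17071 on the opposite strand. WT replicates 1 to 5 had 1214, 1316, 1109, 1221 and 1088 CPM, and Ndrg3 LKO replicates 1 to 5 had 525, 519.9, 491, 495 and 988. Replicates 1 to 4 of the Ndrg3 LKO group were nearly level at less than every WT liver by a wide margin, and replicate 5 lay just under the lowest WT liver. On the log2 scale *Sardh* differed by -0.98 (SE 0.21, adjusted p = 0.00294 by edgeR), and -1.24 without replicate 5 (SE 0.13, adjusted p = 1.05e-05 by edgeR). With library totals alone it was -0.51 (adjusted p = 0.0112 by edgeR).

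The taurine steps moved in opposite directions. *Cdo1*, on chromosome 18 at 46872859 to 46887996 (mm9, minus strand), encodes cysteine dioxygenase, which commits cysteine to breakdown. It had 2713, 1580.2, 2438, 1532 and 1304 CPM in WT replicates 1 to 5 and 764, 1025, 1011, 691 and 1522 in Ndrg3 LKO replicates 1 to 5. The WT livers split into 2 high and 3 lower ones, Ndrg3 LKO replicates 1 to 4 lay below all of them, and replicate 5 lay among the lower WT livers. The log2 fold change was -0.93 (SE 0.27, adjusted p = 0.0138 by edgeR; p = 0.0159 in the exact permutation test) and -1.14 without replicate 5. The call was lost with library totals alone (-0.44, edgeR adjusted p = 0.115) and with quantile normalization (-0.32, limma adjusted p = 0.295; 0.00146 to 0.295 over the 18 alternatives).

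*Csad*, whose product decarboxylates the cysteine sulfinic acid that CDO1 makes to hypotaurine, lies on chromosome 15 at 102007429 to 102019474 (mm9, minus strand). It was the 1 gene of the 10 that rose. WT replicates 1 to 5 had 162, 156, 167, 168 and 259 CPM, and Ndrg3 LKO replicates 1 to 5 had 327, 264, 298, 372 and 496. Every Ndrg3 LKO liver was above every WT liver, although WT replicate 5, the highest of its group, came close to Ndrg3 LKO replicate 2. Replicate 5 of the Ndrg3 LKO group was the highest of all. The log2 fold change was 0.95 (SE 0.20, adjusted p = 0.00288 by edgeR) and 0.78 without that liver (adjusted p = 0.00273 by edgeR).

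**Figure D3:**
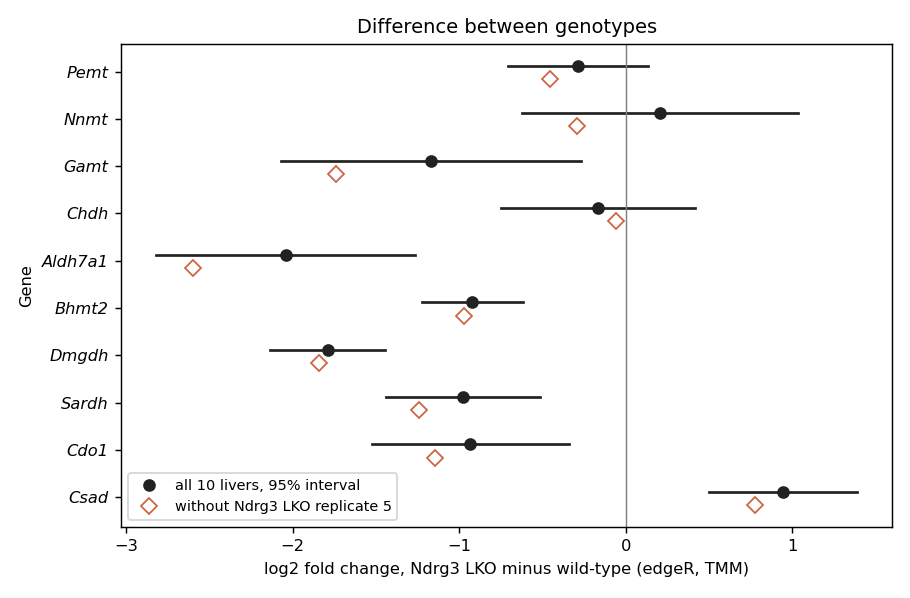
Log2 fold change of each gene (Ndrg3 LKO over WT, edgeR with TMM) over all 10 livers with its 95% interval (filled circles) and without Ndrg3 LKO replicate 5 (open diamonds). The intervals of *Pemt*, *Nnmt* and *Chdh* cross 0, and *Gamt* and *Aldh7a1* moved furthest when replicate 5 was left out.

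The levels of the 10 genes can be compared per kb of annotated exon, where the length counts every exon of every annotated transcript. In WT livers *Cdo1* was highest at 1251 ± 406 CPM per kb, followed by *Nnmt* at 397 ± 117 (SD, n = 5 each). Then came *Sardh* at 219 (range 200.3 to 242), *Pemt* at 209.9 ± 20.8, *Dmgdh* at 156 ± 19.8, *Gamt* at 154 ± 14.4, *Bhmt2* at 127 ± 19.5, *Aldh7a1* at 112 ± 16.5 and *Csad* at 80.6 ± 19.1, and *Chdh* was lowest at 18.3 ± 5.66. Each neighbour from *Sardh* to *Csad* overlapped the next over the livers, while *Cdo1* lay above *Nnmt*, *Nnmt* above *Sardh* and *Csad* above *Chdh* in every WT liver. In Ndrg3 LKO livers *Csad* had moved up to the fourth place at 155 ± 39.9 CPM per kb, and *Dmgdh* at 45.0 ± 7.03 and *Aldh7a1* at 27.3 ± 19.4 had dropped to the places before *Chdh* at 16.3 ± 6.17. *Cdo1* at 655 ± 213 and *Nnmt* at 457 ± 307 overlapped there, and only *Bhmt2* at 67.1 ± 5.54 lay above its next neighbour, *Dmgdh*, without overlap.

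The ratio of 2 genes within a liver does not depend on how libraries are scaled, and 7 such log2 ratios of counts were compared (mean ± SD, n = 5 each) by exact permutation tests, with p-values adjusted over the 7 ratios after Benjamini and Hochberg. The pairs were chosen with earlier results of these data known, and a ratio of genes already called in opposite directions restates those calls. Between the enzymes of taurine synthesis, *Cdo1* to *Csad* was 4.07, 3.34, 3.87, 3.18 and 2.33 in WT replicates 1 to 5 and 1.23, 1.96, 1.76, 0.89 and 1.62 in Ndrg3 LKO replicates 1 to 5. All 5 Ndrg3 LKO livers, replicate 5 included, had less *Cdo1* for their *Csad* than any WT liver (difference -1.87, exact permutation p = 0.00794, adjusted 0.0139). *Dmgdh* to *Sardh*, for the consecutive demethylations, was -1.17 ± 0.21 in WT and -1.93 ± 0.41 in Ndrg3 LKO livers, and replicate 5 had the lowest ratio at -2.54 (difference -0.77, exact permutation p = 0.00794, adjusted 0.0139). Every Ndrg3 LKO liver had less *Dmgdh* for its *Sardh* than every WT liver.

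For betaine synthesis, *Chdh* to *Aldh7a1* was -2.41 ± 0.34 in WT and -0.37 ± 1.20 in Ndrg3 LKO livers (difference 2.04, exact permutation p = 0.0238, adjusted 0.0278). Here Ndrg3 LKO replicates 1 to 4 lay above every WT liver and replicate 5, at -2.28, lay among them. *Bhmt2* to *Bhmt* was -3.71 ± 0.37 in WT and -0.036 ± 1.09 in Ndrg3 LKO livers (difference 3.67, exact permutation p = 0.00794, adjusted 0.0139), with -1.72 in replicate 5. Ndrg3 LKO replicates 1 to 4 lay between -0.27 and 1.19, above replicate 5, and replicate 5 above every WT liver. *Pemt* to *Gamt* was 0.99 ± 0.21 in WT and 2.15 ± 0.70 in Ndrg3 LKO livers (difference 1.16, exact permutation p = 0.0159, adjusted 0.0222), and *Gamt* to *Gatm*, the gene for the enzyme before GAMT, was 6.76 ± 0.25 in WT and 4.22 ± 1.26 in Ndrg3 LKO livers (difference -2.55, exact permutation p = 0.00794, adjusted 0.0139). *Nnmt* to *Pemt* was 0.45 ± 0.40 in WT and 0.82 ± 0.51 in Ndrg3 LKO livers and did not pass (difference 0.36, exact permutation p = 0.230, adjusted 0.230).

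**Figure D4:**
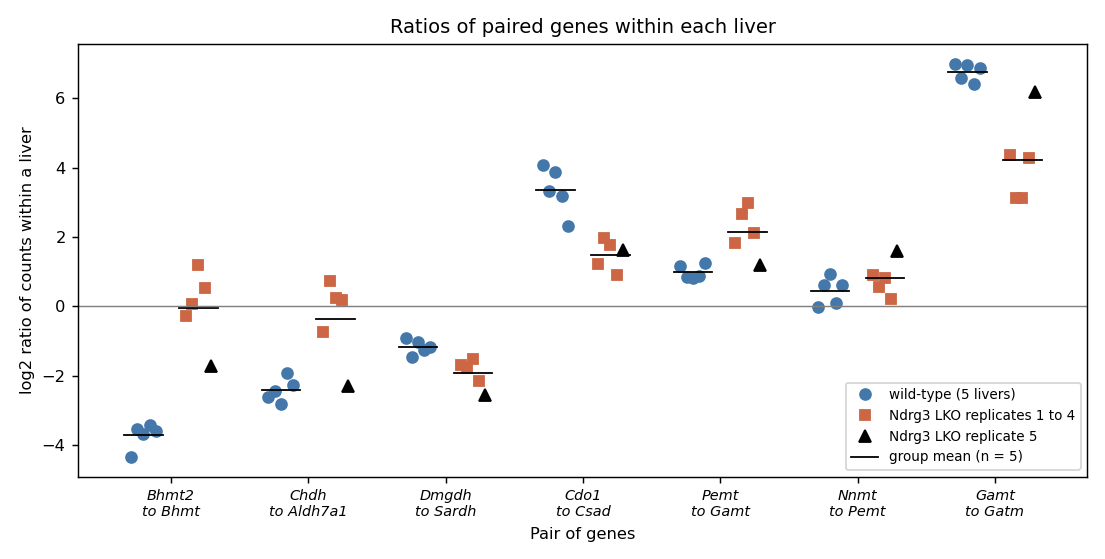
Log2 ratio of counts of 2 genes within each liver for 7 pairs, in WT livers (circles), Ndrg3 LKO replicates 1 to 4 (squares) and Ndrg3 LKO replicate 5 (triangles), with group means as lines (n = 5 each). *Cdo1* to *Csad*, *Dmgdh* to *Sardh*, *Gamt* to *Gatm* and *Bhmt2* to *Bhmt* do not overlap between the groups, and the triangle sits among the WT livers for *Chdh* to *Aldh7a1* and *Pemt* to *Gamt*.

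How far Ndrg3 LKO replicate 5 departed from its group differed from gene to gene. On log2 CPM relative to the WT mean, it lay close to replicates 1 to 4 for *Bhmt2* (-0.76 against a mean of -0.95) and *Dmgdh* (-1.64 against -1.84). It lay part of the way for *Aldh7a1* (-0.85 against -2.59), *Sardh* (-0.26 against -1.23) and *Cdo1* (-0.27 against -1.09), and at the WT mean for *Gamt* (0.031 against -1.87). For *Csad* it went further in the same direction (1.47 against 0.80), and for *Nnmt* (1.36 against -0.29) and *Pemt* (0.22 against -0.46) in the opposite one. *Chdh* was lower in it (-0.72) than in replicates 1 to 4 (-0.064). These are values of 1 liver and were not tested.

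The other genes of these pathways were read from 7 lists, in which 85 of 89 genes were tested and 57 had an adjusted p under 0.05 by edgeR, where 48.6% of all genes tested had one. The counts of each list stand beside the 25.6% of all genes that rose and the 23.0% that fell, and values in parentheses are log2 fold changes and edgeR adjusted p-values. *Gnmt*, *Slc6a12*, *Chka*, *Pcyt1a*, *Gclc*, *Gclm*, *Baat*, *Pipox* and the flavoprotein genes are named for their role and were chosen after the values were seen. Of the 10 genes of the methionine cycle, 1 rose and 6 fell (median log2 fold change -0.57). *Bhmt* (-4.26, adjusted p = 1.75e-04) and *Ahcy* (-1.53, adjusted p = 6.10e-04), for the enzyme that clears S-adenosylhomocysteine, fell the furthest, and *Mtrr* (0.66, adjusted p = 0.0242), which reactivates methionine synthase, rose. *Gnmt*, for the glycine methyltransferase that makes the sarcosine used by SARDH, was at -1.01 (adjusted p = 0.105 by edgeR) and at -1.92 without replicate 5 (adjusted p = 9.10e-06 by edgeR). Among 12 other methyltransferases that were tested, of small molecules apart from *Pcmt1* and *Icmt*, whose products act on proteins, 3 rose and 4 fell (median -0.17). *Hnmt* (-2.71, adjusted p = 8.85e-04), for histamine methylation, and *Mettl7a1* (-1.18, adjusted p = 0.00523) fell, and *Mettl7b* (0.55, adjusted p = 0.0251) and *Pcmt1* (0.54, adjusted p = 0.00235), for repair of damaged aspartate residues in proteins, rose. Without replicate 5, 7 of this list were lower, and *Pnmt* and *Asmt* had 0 counts in every liver.

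Of 19 tested genes of choline and betaine uptake and phosphatidylcholine synthesis, 6 rose and 7 fell (median 0.11). *Gpcpd1* (-3.30, adjusted p = 3.95e-05), whose product releases choline from glycerophosphocholine, and *Chpt1* (-1.87, adjusted p = 3.00e-05), the last step from choline to phosphatidylcholine, fell furthest. *Slc44a3* (1.18, adjusted p = 0.00285), a choline transporter-like protein, and *Pld1* (1.10, adjusted p = 0.00180), which releases choline from phosphatidylcholine, rose. *Slc6a12* (-1.21, adjusted p = 8.76e-04), the betaine transporter, was lower. *Chka* (0.92, adjusted p = 0.00437), for the kinase that starts phosphatidylcholine synthesis from choline, was higher. *Pcyt1a* (-0.56, adjusted p = 0.00251), of the same route from choline, was lower. In the list of cysteine, sulfide and taurine handling, 3 rose and 8 fell of 16 (median -0.64). *Slc27a5* (-2.17, adjusted p = 0.00243), which activates bile acids before they are joined to taurine, and *Suox* (-1.14, adjusted p = 0.00106), for sulfite oxidase, fell. *Cbs* (1.66, adjusted p = 9.56e-06) and *Gss* (1.23, adjusted p = 8.82e-05), of cystathionine and glutathione synthesis, rose. *Gclc* (-0.67, adjusted p = 0.0335) and *Gclm* (-0.78, adjusted p = 0.00211), also of glutathione synthesis, fell. *Baat*, for the enzyme that joins bile acids to taurine, was at -1.12 (adjusted p = 2.89e-04 by edgeR).

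The next list holds 10 genes, for the glycine cleavage system, serine hydroxymethyltransferases, electron transfer flavoproteins and the peroxisomal enzyme PIPOX, which oxidizes sarcosine and pipecolate. *Etfa* and *Etfb* encode the flavoprotein that accepts electrons from DMGDH and SARDH, and *Etfdh* the dehydrogenase of that flavoprotein. In this list, 0 rose and 3 fell (median -0.028). *Gldc* (-1.28, adjusted p = 0.00188), of glycine cleavage, *Shmt2* (-0.70, adjusted p = 0.00775) and *Pipox* (-0.57, adjusted p = 0.0204) fell. The flavoprotein genes were at 0.045 for *Etfa*, 0.38 for *Etfb* and 0.0087 for *Etfdh*, and none passed (adjusted p = 0.138 by edgeR for *Etfb*, the lowest of them). In the list of creatine and nicotinamide partners, 5 rose and 5 fell of 12 (median 0.18). *Aox3* (-3.76, adjusted p = 6.15e-06), for an aldehyde oxidase that clears the methylnicotinamide NNMT makes, and *Nampt* (-1.49, adjusted p = 4.31e-04), which returns nicotinamide to NAD, fell, and *Ckb* (1.75, adjusted p = 0.00114) and *Gatm* (1.08, adjusted p = 0.00140) rose from levels of 2.31 and 2.04 CPM in WT livers. The 6 genes of lysine breakdown, the other pathway of ALDH7A1, all passed, and 1 rose and 5 fell (median -1.52). *Aadat* (-2.13, adjusted p = 8.50e-06) and *Hykk* (-1.81, adjusted p = 6.68e-04) fell furthest, and *Crym* (1.91, adjusted p = 7.19e-04), a ketimine reductase, rose.

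**Figure D5:**
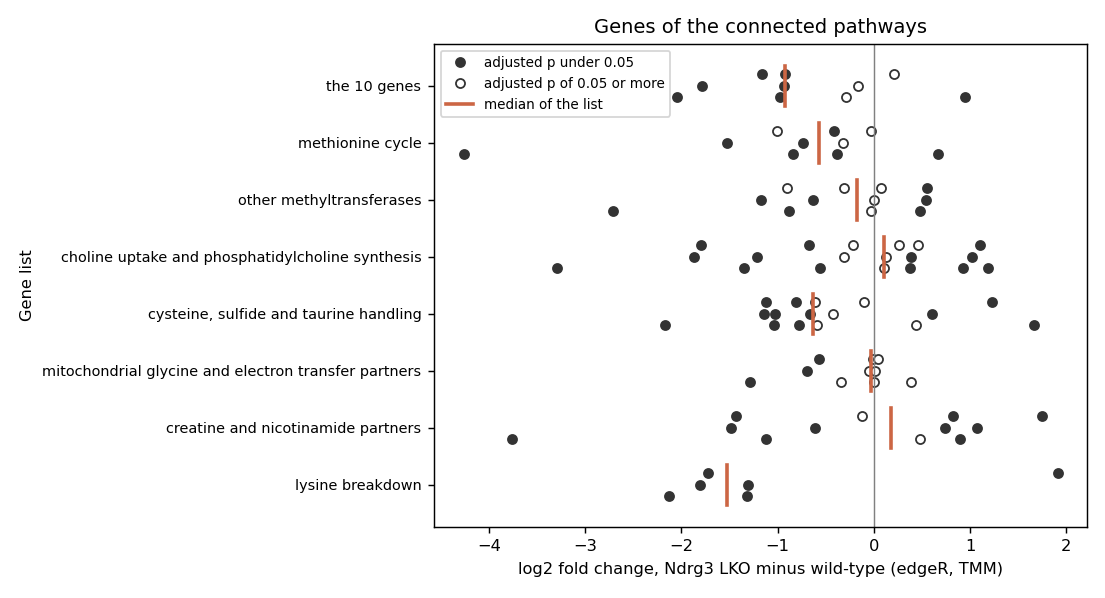
Log2 fold change (Ndrg3 LKO over WT, edgeR with TMM) of the 10 genes and of each tested gene of 7 connected lists, filled where the adjusted p is under 0.05, with the median of each list as a bar. Most lists hold genes on both sides of 0, and lysine breakdown has the lowest median at -1.52.

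For each of the 10 genes, the 2 genes with the most similar pattern over the 10 livers were taken from 7159 others with a mean of at least 10 CPM, by the root-mean-square difference of log2(CPM + 1) relative to the WT mean. *Sardh* was followed most closely, by *2510003E04Rik* (0.0854) and *Anpep* (0.0933), and *Pemt* by *Sft2d1* (0.0939) and *Vtn* (0.0990). The nearest to *Bhmt2* were *Bbox1* (0.132) and *Fbxl17* (0.140), of which *Bbox1* encodes an enzyme of carnitine synthesis, and to *Chdh* *Zdhhc5* (0.116) and *Eif4ebp2* (0.117). *Gamt* was nearest to *Fetub* (0.183) and *Serpinf1* (0.183), which encode secreted plasma proteins. *Dmgdh* was nearest to *Them7* (0.191) and *Chpt1* (0.224), *Cdo1* to *Cry1* (0.196) and *Elf1* (0.207), *Aldh7a1* to *Mir22hg* (0.187) and *Slc8b1* (0.206) and *Csad* to *Tinagl1* (0.208) and *Uqcr10* (0.209). *Nnmt*, with *Gchfr* (0.223) and *Cmc2* (0.284), had the least similar neighbours of the 10.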

How the data were processed

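RNA of 10 livers was sequenced. Per the methods, stranded mRNA libraries were read as paired ends, mapped to mm9 and counted per gene with STAR; the submitters' processing notes name Trim Galore 0.6.4, STAR 2.7.3a and Cufflinks 2.2.1, and the methods another STAR version. Annotation and strand setting of the counting are not given in the sources used here. The values the authors deposited are whole-number counts per gene symbol, not normalized, although the files are named for CPM.

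Symbols reaching 1 CPM in 5 or more livers (4 or more where a liver was left out) were tested, 11208 of 24052, and 6306 had 0 counts throughout. The main test was the quasi-likelihood test of edgeR 4.0.16 (R 4.3.3) with TMM scaling, WT against Ndrg3 LKO, adjusted after Benjamini and Hochberg, with calls at 0.05; the SE is the log2 fold change over the square root of its F. Exact permutation tests, two-sided, used log2(CPM + 1) for single genes and log2 ratios of counts with 0.5 added. A count of 3 equals 0.0728 to 0.179 CPM, which covers counting error only. P-values set the difference between genotypes against the spread between these livers. No 2 livers of the same group were alike within sampling noise (chi-square per degree of freedom 27.2 to 543 over 20 pairs). The tests were first run on simulated counts in which few genes changed, equally in both directions. Such counts cannot check the scaling for data in which, as here, 48.6% of genes were called. Positions are from GENCODE on NCBIM37 (mm9), promoters from RefSeq on GRCm38.p6.

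The 10 genes, lists and ratios were chosen with earlier results of these data known. From each list, up to 2 rises and 2 falls, the largest among called genes, are named. Alternatives were median-of-ratios, library-size and quantile scaling, no filter, a mean of 5 CPM, DESeq2 1.42.0, limma-trend (limma 3.58.1), a replicate block, leaving out each liver, an absolute log2 fold change above 1 and 5 counts added to ratios.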

Additional observations from a re-analysis of the deposited data

Results flagged for a closer look

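Groups of 5 livers examined numbered 84, for the 10 genes, *Ndrg3*, the 7 ratios and the largest rises and falls named from the lists. Of these groups, 11 held 1 liver whose gap to the nearest other exceeded 0.71 of the group's range (Dixon's test). Chance gives about 1 in 20 groups. In 8 of the 11 it was Ndrg3 LKO replicate 5. Of the 10 genes, *Sardh* at 988 CPM and *Aldh7a1* at 320.0 CPM stood above the other Ndrg3 LKO livers in replicate 5, and *Csad* at 259 CPM stood above the other WT livers in WT replicate 5. From the lists, replicate 5 was high for *Bhmt* at 603 CPM, *Gpcpd1* at 91.6, *Slc27a5* at 831, *Suox* at 87.5, *Aadat* at 50.8 and *Hykk* at 35.2. WT replicate 1 was high for *Ahcy* at 3569 CPM and low for *Crym* at 0.562 CPM.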

How the results depend on the processing

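*Bhmt2*, *Dmgdh*, *Sardh*, *Aldh7a1* and *Csad* kept their direction and an adjusted p under 0.05 under all 18 alternatives that refit the genes, *Cdo1* under 16 and *Gamt* under 10; *Chdh* and *Nnmt* passed under none and *Pemt* under 1. Library-size scaling left 5 of the 10 genes called and turned *Pemt* to 0.20 and *Chdh* to 0.39; it moved the median of all genes from 0.031 to 0.56 and the split of calls from 2865 higher and 2578 lower to 5834 and 1005. Counted from that median, TMM and library-size scaling gave -0.32 and -0.36 for *Pemt*, -0.20 and -0.17 for *Chdh*, and -1.20 and -1.34 for *Gamt*, whose adjusted p was 0.0523 there (3.78e-04 to 0.0761 over the alternatives). *Chdh* was at 0.022 without WT replicate 4 and *Nnmt* at -0.29 without Ndrg3 LKO replicate 5; the cause was not tested. With each liver left out, *Nnmt* ranged from -0.29 to 0.38 and *Chdh* from -0.39 to 0.022. An absolute log2 fold change above 1 left 2301 of 5443 genes and 3 of 7. With each liver left out in turn, 6 to 8 of the 10 genes, 48 to 64 list genes and 4703 to 6360 genes were called.

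Both groups carry replicate numbers 1 to 5, but livers with the same number deviated from their groups with a mean correlation of -0.216 and 0 of 5 WT livers correlated best with its own number, so the numbers were not taken to pair the livers. With the number as a replicate block 4412 genes were called, 4332 of them among the 5443, and 7 of the 10 genes and 47 list genes, against 57. A sign-flip test of the ratios over the 5 numbers cannot go below 0.0625, and gave that value for *Bhmt2* to *Bhmt* (difference 3.67), *Dmgdh* to *Sardh* (-0.77), *Cdo1* to *Csad* (-1.87) and *Gamt* to *Gatm* (-2.55), and 0.125 for *Chdh* to *Aldh7a1* (2.04) and *Pemt* to *Gamt* (1.16), exact tests too small to reach 0.05. With 5 counts added, or any liver left out, each ratio kept its direction and its side of 0.05. Depth did not limit the 10 genes, the lowest of which had 1325 counts in a liver.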

Other observations

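The 10 genes together took 0.440 to 0.571% of all counted reads in WT livers, 0.355 to 0.436% in Ndrg3 LKO replicates 1 to 4 and 0.544% in replicate 5.  Before scaling, the counts of *Bhmt2* overlapped between the genotypes, at 4787 to 6591 in WT and 3883 to 6814 in Ndrg3 LKO livers, while those of *Csad* did not, at 2878 to 4350 and 10515 to 13042. Those of *Dmgdh* and *Aldh7a1* did not overlap either, at 8047 to 11453 and 3593 to 6594 for *Dmgdh* and 8572 to 13947 and 2819 to 6778 for *Aldh7a1*. *Sardh* overlapped before scaling, at 18257 to 26894 in WT and 17360 to 21419 in Ndrg3 LKO livers. Over library totals alone *Bhmt2* still overlapped, with 6814 of 29462089 counts in Ndrg3 LKO replicate 3 and 4787 of 20872262 in WT replicate 5. So did *Sardh*, with 20922 of 23474693 counts in Ndrg3 LKO replicate 5 and 18257 of 20872262 in WT replicate 5.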
